A study of Homo sapiens with 74 samples.

Results

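The genes described here are active genes inside lamina-contact bins. They are autosomal protein-coding genes whose midpoint lay in DNA marked by the nuclear lamina in bulk HEK293T cells and whose RNA was present in untreated cells. Whether they were transcribed while in contact with the lamina was not tested. HEK293T is a transformed line of human embryonic kidney origin. A gene was a member when its midpoint fell in a 100 kb bin with a log2 ratio of 0.7 or more and its RNA averaged 20 CPM or more in untreated cells, where CPM is a gene's count scaled to the total of its library. Members were thus chosen by the bulk DamID ratio and by the RNA level of untreated cells, and those values are given as a description, with no test. The log2 ratio set the share of the summed coverage of both DamV133A-LMNB1 libraries falling in the bin over the same share for both DamV133A libraries. Of 18991 placed genes, 957 had their midpoint in such a bin and 922 of these were matched to RNA. Members numbered 100 in 98 bins, against 590 genes under 1 CPM (called silent here) and 232 genes between these limits. The silent genes lay in 441 bins of the same class (log2 ratio of 0.7 or more), which need not hold a member.

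The series mapped contacts between DNA and the nuclear lamina by DamID, in which a bacterial adenine methyltransferase (Dam) fused to lamin B1 (LMNB1) marks nearby GATC sites and free Dam reports how accessible each site is. The bulk libraries that chose the bins came from cells transfected with DamV133A-LMNB1 or with DamV133A, where V133A is a point mutant of Dam (2 libraries each). A separate table of Dam variants held DamV133A-LMNB1, DamV133A, DamWT-LMNB1 and DamWT (2 libraries each). RNA came from cells transfected with DamV133A-LMNB1, with DamV133A or with m6A-Tracer, a fluorescent reader of methylated adenine, and from untransfected cells (2 libraries each). Single cells carried DamV133A-LMNB1 with m6A-Tracer (batch 1, 15 cells), DamV133A-tdTomato-LMNB1 with m6A-Tracer-NES (batch 2, 36 cells) or DamV133A with m6A-Tracer (batch 1, 3 cells, called Dam-only here). The labels attach one protocol to every sample, untransfected cells included: transient transfection with FuGene HD, in which plasmid dose varies from cell to cell, and 1 mM Shield-1, a ligand that stabilises tagged proteins, for 20 hours. All groups are 1 cell line, and nothing says that replicates were separate cultures, so p-values measure the spread between these libraries, which may be technical.

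Lamina-associated domains are long stretches of chromatin held at the nuclear edge, usually poor in genes, late replicating and carrying repressive histone marks. Most promoters inside them are silent, and genes that stay on there are known as escapers. The start of an active gene in such a domain has been seen in other cell lines to lose contact locally.

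Totals were 402171358 to 524019579 per library for the bulk coverage, 3160747 to 10664435 for the Dam variants, 39690886 to 51455298 for RNA and 9526 to 348793 fragments per single cell. LMNB1, the transfected gene, had 2528 and 1981 CPM in the DamV133A-LMNB1 libraries, against 258 and 262 CPM in the DamV133A libraries, 255 and 262 CPM with m6A-Tracer and 744 and 746 CPM in untreated cells. This matched the labels of the fusion libraries. With LMNB1 set aside, the listed markers of the line ran from PAX2, at 3.70 to 5.47 CPM, up to VIM, at 586 to 791 CPM. KRT8, another of them, had 17.5 to 24.8 CPM. Of 13 markers of blood, liver, fibroblasts, endothelium and muscle only COL1A1 exceeded 4 CPM (24.3 to 28.9).

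Promoters of members resembled those of active genes elsewhere rather than those of silent genes in the same bin class. RefSeq promoter windows of 300 bases (250 before and 50 after the start, assembly GRCh38.p14) were at hand for 83 members. They were also at hand for 503 silent genes of the same bin class and 6664 genes at 20 CPM or more in other bins. The share with an observed over expected CpG ratio of 0.6 or more was 85.5% in members (71 promoters), against 19.5% in silent genes, 90.1% in active genes elsewhere and 66.1% in all 15101 promoters. Since the RNA level chose the members, these shares are a description. Each gene had 1 start site, here and in the start-site results below, the listed one nearest the upstream end of its annotated span. Whether that start was the one used in these cells was not tested. Members with few CpG in this window included SRI, CPS1, GALNT13, SATB1, GPC6 and FOXP2, 12 promoters in all. The GATC sites that Dam can mark in such a window are capitalised in these 4 promoters, chosen to show 2 CpG-rich windows with GATC sites, 1 without any and the CpG-free window of SRI.
ALCAM: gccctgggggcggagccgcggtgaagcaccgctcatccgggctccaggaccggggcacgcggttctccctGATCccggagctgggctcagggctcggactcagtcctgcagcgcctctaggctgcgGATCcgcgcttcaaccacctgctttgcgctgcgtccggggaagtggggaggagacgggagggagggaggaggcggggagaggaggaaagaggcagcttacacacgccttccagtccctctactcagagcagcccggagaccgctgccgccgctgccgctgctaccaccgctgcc
ALG10B: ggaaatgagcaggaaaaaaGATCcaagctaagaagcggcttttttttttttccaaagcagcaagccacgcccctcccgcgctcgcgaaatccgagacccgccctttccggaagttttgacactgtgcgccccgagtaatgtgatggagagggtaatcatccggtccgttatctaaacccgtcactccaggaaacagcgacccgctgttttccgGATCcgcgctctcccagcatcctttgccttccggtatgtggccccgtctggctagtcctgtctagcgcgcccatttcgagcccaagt
ZWINT: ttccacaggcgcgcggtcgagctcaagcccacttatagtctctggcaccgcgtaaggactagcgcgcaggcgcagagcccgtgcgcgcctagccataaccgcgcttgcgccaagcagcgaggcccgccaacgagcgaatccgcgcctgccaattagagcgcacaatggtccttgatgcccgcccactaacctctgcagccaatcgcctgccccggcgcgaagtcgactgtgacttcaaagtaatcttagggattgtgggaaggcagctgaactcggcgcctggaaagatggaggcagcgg
SRI: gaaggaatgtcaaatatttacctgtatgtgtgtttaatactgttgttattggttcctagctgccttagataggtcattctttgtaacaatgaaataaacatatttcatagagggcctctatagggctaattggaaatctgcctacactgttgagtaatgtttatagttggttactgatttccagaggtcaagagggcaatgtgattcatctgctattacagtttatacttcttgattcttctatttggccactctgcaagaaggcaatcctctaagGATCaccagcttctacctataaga
ALCAM encodes the adhesion molecule CD166, and its window (chr3:105366659-105366958, plus strand) held 26 CpG and 2 GATC sites. ALG10B encodes a glucosyltransferase of the N-glycan precursor, and its window (chr12:38316524-38316823, plus strand) held 24 CpG and 2 GATC sites. ZWINT encodes a kinetochore protein, and its window (chr10:56361224-56361523, minus strand) held 31 CpG and 0 GATC sites. SRI encodes the calcium-binding protein sorcin, and its window (chr7:88226927-88227226, minus strand) held 0 CpG and 1 GATC site.

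Letters matched on either strand followed the same split. GGGCGG, the GC box, was found in 60.2% of member windows, against 18.1% of silent, 74.1% of active windows elsewhere and 58.7% of all windows. The ETS-type letters CCGGAAG were found in 19.3% of member windows, against 2.58%, 22.0% and 14.3% in the same order. TATAAA showed the reverse, with 7.23% of member windows, 27.6% of silent windows, 4.55% of active windows elsewhere and 9.83% of all. CCAAT, the core of the NF-Y motif, differed little, at 37.3%, 43.3%, 37.6% and 36.1%. A GATC was present in 47.0% of member windows, 45.9% of silent windows, 37.4% of active windows elsewhere and 39.5% of all, and 44 of the 83 member windows had 0. Matches of different motifs may overlap, and a match is a description of the window, not a binding site.

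**Figure D1:**
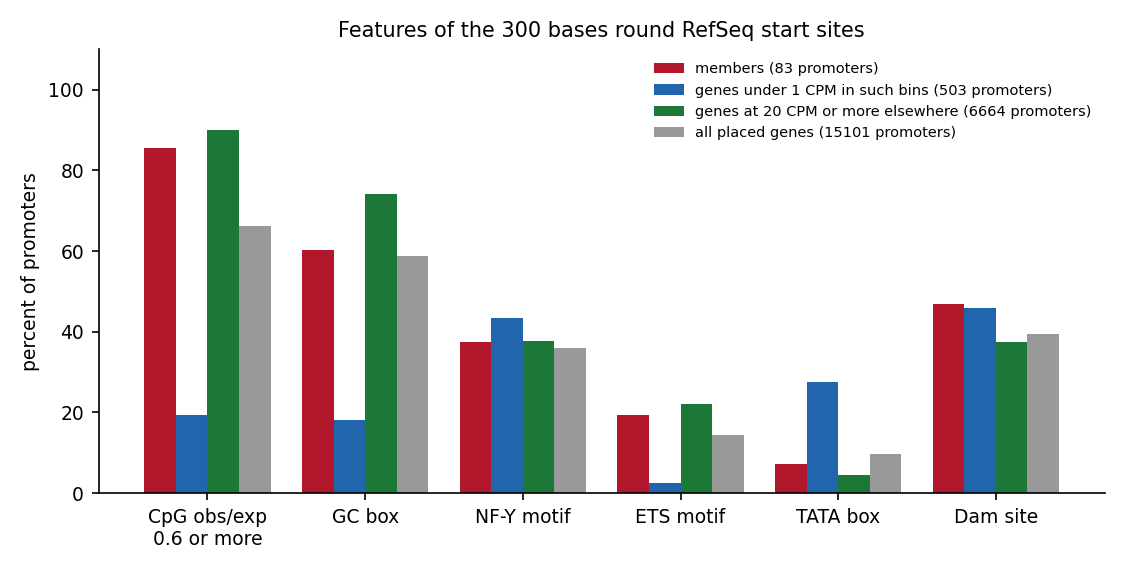
Share of promoter windows (percent, vertical axis) with a CpG ratio of 0.6 or more or with each motif. Bars are for members, silent genes of the same bin class, active genes elsewhere and all placed genes. Bars of members stand near those of active genes elsewhere for CpG, ETS and TATA letters, at 85.5% against 90.1% for CpG. For the GC box members (60.2%) stand near all placed genes (58.7%) and under active genes elsewhere (74.1%).

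Members were few, long and near the edges of contact domains. They made up 10.8% of the RNA-matched genes in their bin class, whereas 45.5% of genes in other bins reached 20 CPM, and they were 1.24% of all placed genes at that level. Chromosome 6 held 15 members, chromosome 1 held 13 and chromosome 7 held 11, while chromosomes 15 to 19, 21 and 22 held 0. Their median span was 83.8 kb, against 28.7 kb for silent genes of the same bin class and 33.4 kb for active genes elsewhere. Spans ran up to 1388 kb, and the 3 longest were GALNT13, GPC6 and ROBO1. A total of 79 members were the only protein-coding gene with a midpoint in their bin. Where a span reaches past its bin, the bin value describes only the DNA around the gene's midpoint.

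Lamina signal of the member bins, the value that chose them, ran from 0.70 to 1.46 with a median of 0.88 on the log2 scale, against a median of 1.02 for silent genes. The share of members under 1.0 was 68%, against 48.5% of silent genes and 37.6% of all 6693 bins at or over the limit. A bin at the edge of its run of contact bins held 56% of members, against 44.6% of silent genes and 30.6% of the bins themselves. Runs of 10 or more bins nevertheless held 45 members, both adjoining bins were at or over the limit for 44, and only 4 members had an adjoining bin under 0. PCDH10, a protocadherin of neurons, lay deepest along the chromosome among the genes named here, in a run of 83 bins and 37 bins from its edge. Just inside the log2 limit were GOLT1B at 0.70, BLTP1 at 0.71 and TMTC3 at 0.72, and just outside were FANCL at 0.70, RNPC3 at 0.70 and SNX7 at 0.69. Just inside the RNA limit were DENND1B at 20.02, PLCB1 at 20.8 and GPATCH2 at 22.0 CPM, and just outside were COBLL1 at 19.96, PABPC4L at 19.6 and TRMT10A at 19.3 CPM.

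Start sites often lay in weaker contact than midpoints, which the rule held at 0.7 or more. Of 82 members whose start site had a bin value, 53 (64.6%) had it in a bin at or over 0.7, against 91.2% of 502 silent genes. The median of the start-site bin was 0.79 for members and 0.99 for silent genes. MIPOL1 and CEP44, a centrosomal protein, had start sites in bins under 0, at -0.75 and -0.39. For these genes the start site used here lay outside the contact domain. These values come from the coverage that chose the members and carry no test. Only a start site in another bin than the midpoint was free to fall under 0.7. This was the case for 43 of the 82 members and 163 of the 502 silent genes. Members also had longer spans, with a median of 83.8 kb against 28.7 kb, and the part of length in the difference was not tested.

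The highest CPM in untreated cells was that of COX7C, a subunit of cytochrome c oxidase, at 221 and 212 CPM in bin chr5:86600001-86700000. ROBO1, the receptor for Slit guidance cues, had 171 and 176 CPM, and ZWINT had 155 and 162 CPM. ATXN7L3B followed at 151 and 151 CPM, IVNS1ABP at 146 and 153 CPM, and ASPM, a spindle-pole protein needed for brain size, at 143 and 149 CPM. Replicate libraries of untreated cells were close, with a median gap between them of 0.05 on the log2 scale over the 100 members. FBN2, which encodes fibrillin-2, and SLC6A15, a neutral amino acid transporter, each had 123 CPM in the first library, with 127 and 126 CPM in the second. The next were the helicase ASCC3 (111 and 113 CPM), SRI (102 and 101 CPM), ALCAM (93.9 and 97.0 CPM) and the splicing factor PLRG1 (85.8 and 88.6 CPM). CPM is not scaled by length, so these levels do not rank genes by transcripts.

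The bins with the strongest bulk signal held GALNT13 (log2 1.46), ANKRD50 (1.40), P2RY1 (1.34), SMIM30 (1.27), PCDH10 (1.26), MANEA (1.24), SLITRK5 (1.24) and BCKDHB (1.23). GALNT13 starts O-linked glycosylation, P2RY1 is an ADP receptor, MANEA is a Golgi mannosidase and BCKDHB is a subunit of the branched-chain keto acid dehydrogenase. The pairs of libraries behind a value could differ: P2RY1 had 0.94 in the first pair and 1.73 in the second, while SMIM30 had 1.26 and 1.30. ASPM had 0.73 and 1.16, and ASCC3 had 0.54 and 0.89, so the first pair of ASCC3 lay under the limit of 0.7.

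Common gene families held members at about the rate of all genes. The 16 lists together held 1703 genes, of which 10 (0.587%) were members, against 100 (0.545%) of 18347 placed genes with RNA and a bin value. Of these lists, 10 had 0 members: 81 cytosolic ribosomal protein genes, 77 mitochondrial ribosomal protein genes, 47 proteasome genes, 53 initiation factors, 87 chaperones, 41 ubiquitin-conjugating enzymes and cullins, 28 nuclear pore genes, 13 lamina genes, 495 ZNF genes and 35 RNA-processing enzymes. Splicing factors contributed LSM8, of the ring that binds U6 RNA, as 1 of 115. Oxidative phosphorylation contributed COX7C as 1 of 93, and centromere and mitotic genes contributed CENPW, an inner kinetochore protein, as 1 of 48. Solute carriers contributed 4 of the 17 that lay in such bins: SLC6A15, SLC25A46, SLC7A11 and SLC44A5. Cadherins and protocadherins had 13 genes in the bins and 1 member, PCDH10, and axon guidance and synaptic adhesion had 14 genes in the bins and 2 members, ROBO1 and CNTN1.

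The separate libraries of the Dam variants, which the rule did not use, tested whether the same bins were marked again. With DamV133A-LMNB1 over DamV133A, 78 of the 98 member bins were higher and 0 lower (edgeR quasi-likelihood test, Benjamini-Hochberg adjusted p under 0.05), where 27.0% of all 28733 bins tested were higher. All 98 had a log2 fold change over 0 with TMM, with a median of 1.19. Scaled by library totals, 95 were above 0 and 3 below, with a median of 0.80, and without either fusion library 96 were above 0. CPS1, the first enzyme of the urea cycle, had the largest, with 3.66 and 4.18 times the library's mean count per DpnI fragment with the fusion, against 1.06 and 0.92 times with free DamV133A. The fusion libraries of CPS1 thus stood well above both controls, a log2 fold change of 2.41 ± 0.28 (SE, n = 2 each, edgeR adjusted p = 8.31e-05). SLITRK5, a neuronal adhesion protein, had 6.05 and 6.31 times with the fusion against 3.01 and 3.02 times with free Dam (1.46 ± 0.21, SE, edgeR adjusted p = 0.000209), again without overlap.

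Among the genes of highest CPM, COX7C had 1.97 and 2.95 times the library mean with DamV133A-LMNB1, against 1.49 and 1.59 times with DamV133A (log2 fold change 1.10 ± 0.29, SE, edgeR adjusted p = 0.00649). ZWINT had 3.83 and 3.22 times, against 1.47 and 1.65 times (1.59 ± 0.25, edgeR adjusted p = 0.000291). ASPM had 4.79 and 2.86 times, against 2.77 and 3.09 times (0.80 ± 0.27, edgeR adjusted p = 0.0253). For COX7C and ZWINT the libraries did not overlap, whereas the second fusion library of ASPM lay between its controls. Log2 fold changes here sit above the plain ratio of these densities because the test scales libraries by TMM, and scaling by library totals moved the median over all bins to -0.50, where it was -0.10 with TMM. It called 51 member bins higher, where 18.5% of all bins were higher.

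The 20 member bins that were not called had log2 fold changes of 0.23 to 0.97, and 19 of them had a bulk ratio under 1.0. They included ASCC3, SRI and PLRG1 of the genes above, and TTC14 and RIMOC1. TMX4, a thioredoxin-like membrane protein, was the lowest, with 1.09 and 1.04 times the library mean with the fusion, against 1.35 and 1.08 times with free Dam (0.23 ± 0.35, edgeR adjusted p = 0.60). Its 4 libraries overlapped.

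With wild-type Dam fewer bins passed. DamWT-LMNB1 over DamWT called 5 member bins higher and 0 lower, where 2.63% of all bins were called and 2.42% were higher, and the median over member bins was 0.64. The 5 were those of SMIM30 (log2 fold change 1.42), GALNT13 (1.24), SLC6A15 (1.17), PLA2G4A (1.14) and CWC22 (1.03), a splicing factor of the exon junction complex. CWC22 had 2.91 and 2.58 times the library mean with DamWT-LMNB1 against 1.59 and 1.45 times with DamWT, while its bin was not called with V133A (2.49 and 2.53 times with the fusion, 2.52 and 2.49 times with free Dam). SESTD1, NUDCD1 and BLTP1 had values below 0 with wild-type Dam. Free DamV133A over free DamWT called 0 member bins with edgeR, where 0.0% of all bins were called. An unadjusted p under 0.05 was found for 7 member bins and 5.04% of all bins, and DESeq2 called 1 member bin and 0.616% of all bins.

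The effect of the fusion with V133A minus that with wild-type Dam passed upward at 1 member bin, that of CENPW (chr6:126400001-126500000), where 0.494% of all bins passed and 0.136% passed upward. This bin had 6.74 and 6.68 times the library mean with DamV133A-LMNB1 against 1.66 and 1.78 times with DamV133A, and 4.51 and 3.82 times with DamWT-LMNB1 against 3.00 and 2.91 times with DamWT. The difference was 1.71 ± 0.30 on the log2 scale (SE, edgeR interaction, adjusted p = 0.0449). The fusion was above free Dam with both enzymes, and the densities of free DamV133A were below those of free DamWT. With a replicate block the interaction called 0 member bins and 0% of all bins. DESeq2 called 19, all upward, where 15.2% of all bins were called and 8.59% upward. The CENPW bin was not called without either DamV133A library, either DamWT library or the first DamWT-LMNB1 library. Leaving out 1 of the other fusion libraries raised the calls in member bins and over all bins. The median interaction over member bins was 0.57, and 0.50 to 0.61 with 1 library left out.

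**Figure D2:**
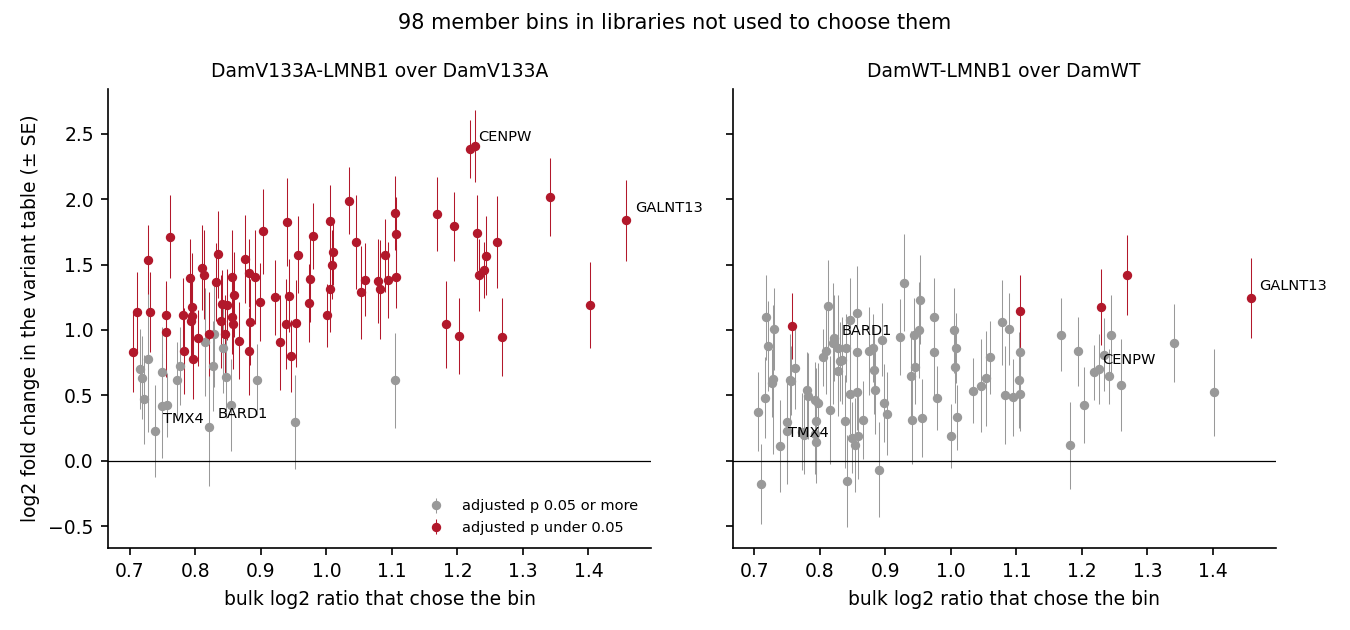
Log2 fold change (vertical axis, bars are ± 1 SE) of DamV133A-LMNB1 over DamV133A (left) and of DamWT-LMNB1 over DamWT (right) in the Dam variant libraries, against the bulk log2 ratio that chose the bins (horizontal axis), 1 point per member bin, red where the edgeR adjusted p was under 0.05. All 98 points lie above 0 on the left with TMM scaling (95 of them with library totals), and 78 are red on the left and 5 on the right.

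Free Dam also marked member bins more densely than others. The median over member bins was 1.36 and 1.42 times the library mean with DamV133A, against 1.01 and 1.00 times in bins holding silent genes only and 0.91 and 0.93 times in bins of active genes elsewhere. With DamWT it was 1.34 and 1.42 times, against 1.12 and 1.13 times and 0.81 and 0.80 times. With DamV133A-LMNB1 member bins had 2.47 and 2.36 times, bins of silent genes 1.97 and 2.05 times, and bins of active genes elsewhere 0.24 and 0.22 times. Member bins were therefore high in both the fusion and the free enzyme, and the ratio of the fusion to the free enzyme was lower than for silent genes. In the stratum of bulk ratios from 0.7 to 1.0 that log2 ratio of densities was 0.64 and 0.55 over 66 member bins, against 0.84 and 0.91 over 202 bins of silent genes. From 1.0 upward it was 1.03 and 1.10 over 32 member bins, against 1.12 and 1.14 over 216 bins. With wild-type Dam the classes were close, 0.46 and 0.41 against 0.38 and 0.44 in the lower stratum.

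Around the start sites of members the V133A fusion signal dipped. Counts were summed in 10 kb windows out to 100 kb on either side of 83 member start sites, and the fusion was set over free Dam. Within 10 kb the log2 ratio was 0.34 and 0.22 in the 2 libraries, against 0.88 and 0.84 beyond 50 kb, a dip of -0.53 and -0.61. The lowest window was the first 10 kb downstream, at 0.29 and 0.09. Silent genes of the same bin class had 0.95 and 0.90 within 10 kb and 0.93 and 0.97 beyond 50 kb, a change of 0.01 and -0.07. The 198 genes between 1 and 20 CPM had a dip of -0.49 and -0.42, and the 6664 active genes elsewhere of -0.28 and -0.35. With wild-type Dam the change at members was 0.00 and -0.10.

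Both the fusion and the free enzyme moved. Close to member start sites DamV133A-LMNB1 had fewer counts than farther away (log2 -0.38 and -0.46), while free DamV133A had more (0.20 and 0.13). With wild-type Dam both had fewer, -0.31 and -0.41 for DamWT-LMNB1 and -0.29 and -0.32 for DamWT. Counting covered DpnI fragments in place of reads gave a dip of -0.41 and -0.44 at members, 0.01 and -0.03 at silent genes and -0.09 and -0.11 at active genes elsewhere.

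**Figure D3:**
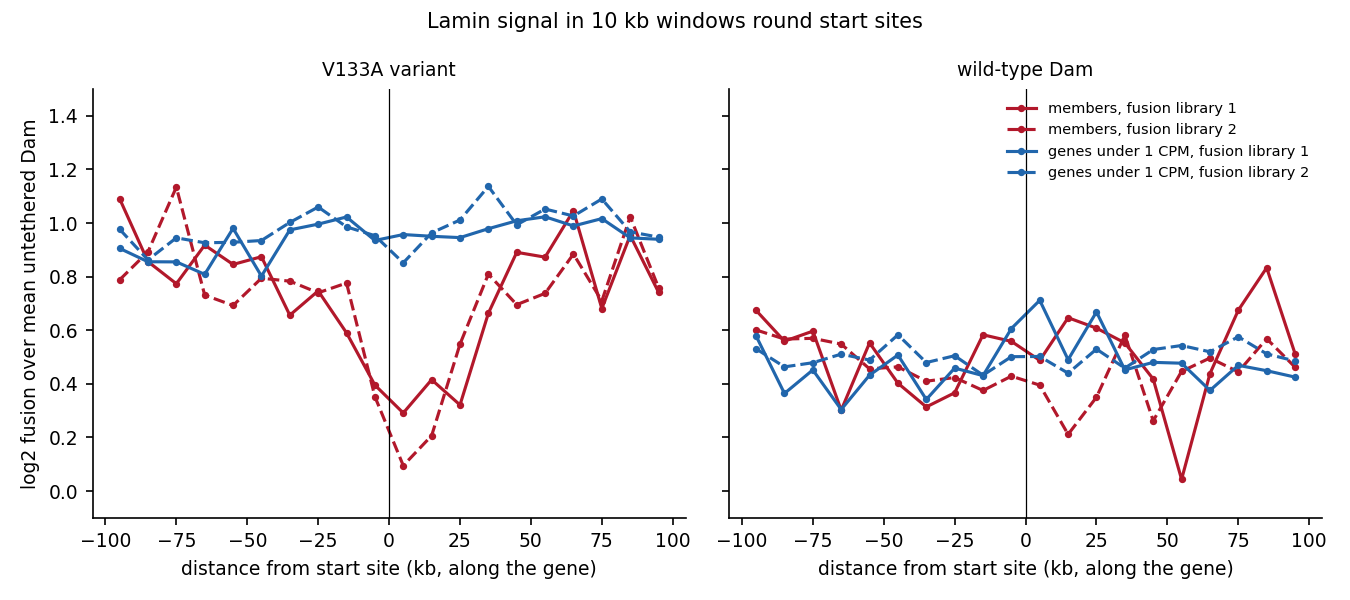
Log2 ratio of the LMNB1 fusion over mean free Dam (vertical axis) in 10 kb windows by distance from the start site (kb, horizontal axis), for the V133A variant (left) and wild-type Dam (right), with members in red and silent genes in blue, 1 line per fusion library. On the left the lines of members fall to 0.29 and 0.09 just downstream of the start site, and those of silent genes lie between 0.80 and 1.14 throughout.

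The dip was seen across members, but at no single gene did it pass a test. This comparison was added after the profile had been seen: within 10 kb against 50 to 100 kb away, fusion over free Dam, with the library as a block in an edgeR quasi-likelihood fit of 14895 genes. It called 0 members and 0.0% of all genes, with an unadjusted p under 0.05 for 6 members and 9.08% of all genes. The members' median was -0.63, with 71 of 83 (85.5%) below 0. It was -0.10 for silent genes (53.0% below 0), -0.67 for active genes elsewhere (64.7%) and -0.57 for all genes (63.1%). Leaving out either DamV133A-LMNB1 library gave 58 or 63 of 83 members below 0, and leaving out either DamV133A library 61 or 62. The share of all genes below 0 in those fits was not computed. With covered fragments the median was -0.43 at members (79.5% below 0), -0.01 at silent genes (51.1%), -0.10 at active genes elsewhere (54.2%) and -0.08 over all genes (53.7%). Members whose start site lay in a bin at 0.7 or more had a median of -0.64 (46 of 53 below 0), against -0.05 for such silent genes. SMIM30 (-4.21), LSM8 (-3.32) and MAN2A1 (-3.09) were the lowest, ASPM had -1.99 and ZWINT -1.63, and TTC21B (3.20) and ELOVL4 (2.51) were the highest. With wild-type Dam the median was -0.17 (45 of 83 below 0).

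Over the whole span of the gene no difference from the DNA beside it was called. The fusion signal over the span against 50 kb on either side was tested in 95 members, of which 0 were called with either enzyme, as were 0.0% of 14319 genes. The median with V133A was 0.00 for members, 0.07 for silent genes, -0.28 for active genes elsewhere and -0.18 for all genes, and with wild-type Dam 0.10 for members. Among the 91 members with 200 counts or more in each region, CHORDC1 (-2.97), DIPK2A (-2.96), FPGT (-1.75), PCDH10 (-1.52), BARD1 (-1.35) and ITPRID2 (-1.30) were the lowest. ALG10B (1.55), SCLT1 (1.54), ISOC1 (1.28), CWF19L2 (1.16), CPS1 (1.12) and MIPOL1 (1.05) were the highest, and the smallest adjusted p among these 91 was 0.35. For the longest genes the flanks are short beside the span, and for the shortest the span holds few GATC fragments.

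In single LMNB1 cells, how often member bins were in contact with the lamina depended on the limit used: more often than all bins at the expected count, but not in both batches at 2 times that count. Contact was scored where the fragments of a bin were at least as many as free DamV133A would give at the depth of that cell. Over the 98 member bins the mean share of cells in contact was 50.7% in batch 1 LMNB1 cells (15 cells), 46.9% in batch 2 (36 cells) and 24.1% in Dam-only cells (3 cells). Exact 95% binomial intervals were 48.2 to 53.3%, 45.3 to 48.6% and 19.4 to 29.5%, which cover counting error over bins and cells only. They treat each bin in each cell as a separate trial and leave out the spread between cells. Single cells ran from 20.4 to 77.6% in batch 1, 23.5 to 71.4% in batch 2 and 21.4 to 28.6% in Dam-only cells. All 26811 scored bins had 35.1%, 39.7% and 39.0% in the same order. Bins holding silent genes only had 59.3% in batch 1, 60.6% in batch 2 and 23.3% in Dam-only cells. Bins of active genes elsewhere had 18.9%, 22.2% and 54.4% in the same order, so in LMNB1 cells member bins stood between these classes. At 2 times the expected fragments, member bins had 20.8% in batch 1 and 17.1% in batch 2, against 35.2% and 31.5% for silent bins, 7.14% and 6.99% for bins of active genes elsewhere and 18.0% and 18.0% for all bins. Member bins were nearer to the silent class at the lower limit and nearer to active genes elsewhere at the higher one, and at the higher one the batch 2 share was below that of all bins.

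Set cell by cell, fragments over expectation were lower in member than in silent bins in 15 of 15 batch 1 cells and 36 of 36 batch 2 cells. The medians of the log2 difference were -0.37 and -0.38, while the 3 Dam-only cells ran from -0.35 to 0.46. In bins with a bulk ratio of 0.7 to 1.0 the difference was -0.56 (15 of 15 cells below 0) and -0.51 (36 of 36). In bins of 1.0 or more it was -0.24 (12 of 15) and -0.32 (35 of 36). Cells of 1 group count as 1 sample, so no p is given. Thinning each cell to 10000 fragments (1 batch 1 cell fell under this) gave 38.2% at member bins and 39.7% at silent bins in batch 1, and 35.9% and 37.3% in batch 2. In Dam-only cells it gave 22.1% and 17.6%. A scored bin then held 0.373 fragments on average, and a single fragment scores as contact wherever fewer than 1 is expected, so the thinned shares do not measure the gap in fragments.

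**Figure D4:**
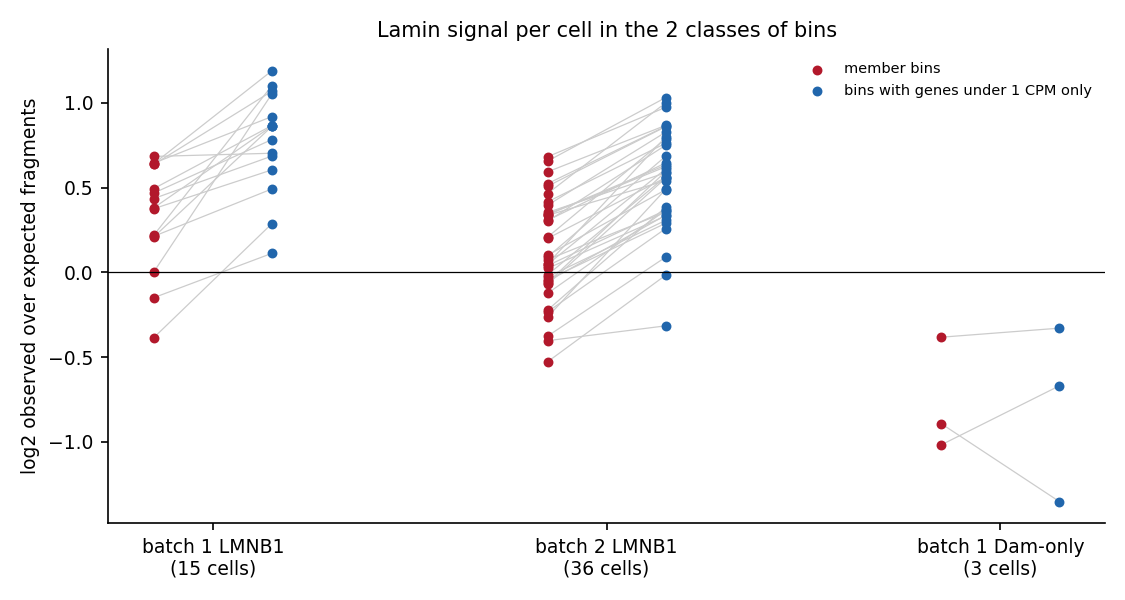
Log2 of observed over expected fragments (vertical axis) in member bins (red) and in bins of silent genes only (blue), 1 point per cell and class with a line joining the points of a cell, for batch 1 LMNB1, batch 2 LMNB1 and Dam-only cells. The member point lies below the silent point in 15 of 15 and 36 of 36 LMNB1 cells, and in 2 of 3 Dam-only cells.

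Contact varied widely among member bins, from 13.3 to 80.0% of cells in batch 1 (median 53.3%) and from 5.56 to 83.3% in batch 2 (median 47.2%). The medians in batches 1 and 2 were 60.0 and 61.1% for bins holding silent genes only, and 33.3 and 38.9% for all scored bins. In 35 of the 98 member bins the share was 50% or more in both batches. How many other bins reached this was not computed. The bin shared by ASPM and ZBTB41 was in contact in 3 of 15 and 2 of 36 cells, although it lay 24 bins inside a run of 64. Other bins with little contact in batch 2 were those of CWC22 (11.1%), MPDZ (16.7%) and SLITRK5 (19.4%), and the SLITRK5 bin had 66.7% in batch 1. The expected count follows free DamV133A, whose density in the bins of ASPM, CWC22 and SLITRK5 stood above the member median. Such bins need more fragments to score as contact, and the part of this in their low shares was not tested. The bin of IVNS1ABP was in contact in 9 of 15 and in 83.3% of batch 2 cells. Those of SESTD1 (77.8%), NREP (75%) and the pair TYW3 and CRYZ (75%) followed. CRYZ and TYW3 share a bin with 102 bases between their spans, and ASPM and ZBTB41 lie 7013 bases apart, so each pair has 1 bin value.

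RNA of most members did not pass the test with the lamin fusion. DamV133A-LMNB1 over DamV133A called 17 of 100 members, 8 higher and 9 lower, where 20.3% of 17740 genes tested were called, 12.7% higher and 7.55% lower. Scaled by library totals, which lowered the median of all genes to -0.10, the calls were 4 higher and 24 lower, where 21.5% of all genes were called, 8.22% higher and 13.3% lower. The median over members was -0.12, against -0.02 over all genes, and 32 members were above 0. It was -0.02 without fusion library 2, with 43 members above 0, and -0.19 without fusion library 1. The called changes were small, 0.22 to 0.80 upward and -0.22 to -0.78 downward on the log2 scale. In all 17 the 2 fusion libraries lay on one side of both DamV133A libraries. The test picked the 17 from these same libraries, so this is a description and adds no support. The share over all genes was not computed. These calls went to 0 when any 1 DamV133A, m6A-Tracer or untreated library was left out, where 1 gene was called in all. They went to 71 without fusion library 1, where 48.7% of all genes were called, and to 27 without fusion library 2, where 23.7% were. The fusion libraries differed from each other by a median of 0.22 over members, against 0.05 in each other group, and that gap's part in the calls was not tested. In bulk RNA, fewer cells expressing a gene and less RNA per cell cannot be told apart.

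Of the 8 members called higher, CMC1, COX7C and CENPW had the largest changes. COX7C had 211 and 255 CPM with DamV133A-LMNB1, 156 and 155 CPM with DamV133A, 189 and 187 CPM with m6A-Tracer and 221 and 212 CPM in untreated cells. DamV133A libraries were the lowest and untreated cells overlapped the fusion, which was 0.67 ± 0.09 above DamV133A (log2, SE, n = 2 each, edgeR adjusted p = 0.0180). CMC1, an assembly factor of cytochrome c oxidase, had 29.0 and 37.1 CPM with the fusion, 20.8 and 19.4 CPM with DamV133A, 25.2 and 23.3 CPM with m6A-Tracer and 28.1 and 28.8 CPM untreated (0.80 ± 0.12, edgeR adjusted p = 0.0180). SRI had 101 and 110 CPM with the fusion, 84.6 and 82.1 CPM with DamV133A, 87.6 and 87.9 CPM with m6A-Tracer and 102 and 101 CPM untreated (0.43 ± 0.06, edgeR adjusted p = 0.0180). For both, too, the fusion libraries were near the untreated ones and the DamV133A libraries were lowest. CENPW had 39.6 and 52.5 CPM with the fusion, against 34.3 and 35.7 CPM with DamV133A (0.48 ± 0.13, edgeR adjusted p = 0.0377). The fusion libraries of CENPW were farther apart than the nearer of them stood from the controls.

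Smaller rises were those of AIG1, a membrane hydrolase of fatty acid esters, TWIST1, a transcription factor of mesoderm, PLA2G4A, the cytosolic phospholipase A2, and PRMT6, an arginine methyltransferase. AIG1 had 48.3 and 52.3 CPM with the fusion, against 41.3 and 41.5 CPM with DamV133A. TWIST1 had 20.2 and 22.8 CPM, against 18.1 and 17.9 CPM. The 4 log2 changes were 0.36, 0.34, 0.27 and 0.22, with edgeR adjusted p of 0.0201, 0.0337, 0.0394 and 0.0389.

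Among the 9 called lower, the largest fall was that of ASPM, which had 164 and 98.8 CPM with DamV133A-LMNB1, 231 and 245 CPM with DamV133A, 211 and 218 CPM with m6A-Tracer and 143 and 149 CPM in untreated cells. The fusion libraries lay below both other transfections and on either side of the untreated libraries, and were 0.78 lower than DamV133A on the log2 scale (-0.78 ± 0.18, SE, n = 2 each, edgeR adjusted p = 0.0272). ZBTB41, the zinc finger gene in the same bin, had 25.1 and 19.9 CPM with the fusion, against 29.8 and 31.5 CPM with DamV133A (-0.37 ± 0.10, edgeR adjusted p = 0.0389). RIMOC1, a regulator of the GTPase RAB7A, had 59.7 and 49.5 CPM with the fusion, 74.9 and 76.4 CPM with DamV133A, 62.8 and 66.1 CPM with m6A-Tracer and 47.0 and 46.6 CPM untreated (-0.39 ± 0.08, edgeR adjusted p = 0.0217). In all of these the second fusion library was the lower, as in each of the 9 called lower.

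ALG10B had 46.1 and 39.6 CPM with the fusion, 57.0 and 58.9 CPM with DamV133A, 46.3 and 51.2 CPM with m6A-Tracer and 52.2 and 54.7 CPM untreated (-0.36 ± 0.08, edgeR adjusted p = 0.0256). TTC14 had 28.8 and 24.9 CPM with the fusion, against 35.3 and 37.2 CPM with DamV133A (-0.35 ± 0.07, edgeR adjusted p = 0.0218). P2RY1 had 18.5 and 14.9 CPM with the fusion, against 22.2 and 22.5 CPM with DamV133A (-0.34 ± 0.09, edgeR adjusted p = 0.0408). None of these pairs of libraries overlapped, as in all members that the test picked from these libraries. SLC7A11, the cystine and glutamate exchanger, and SLC44A5, of the choline transporter-like family, fell by 0.43 and 0.37, and CEP44 fell by 0.22 (edgeR adjusted p = 0.0489, 0.0427 and 0.0456).

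**Figure D5:**
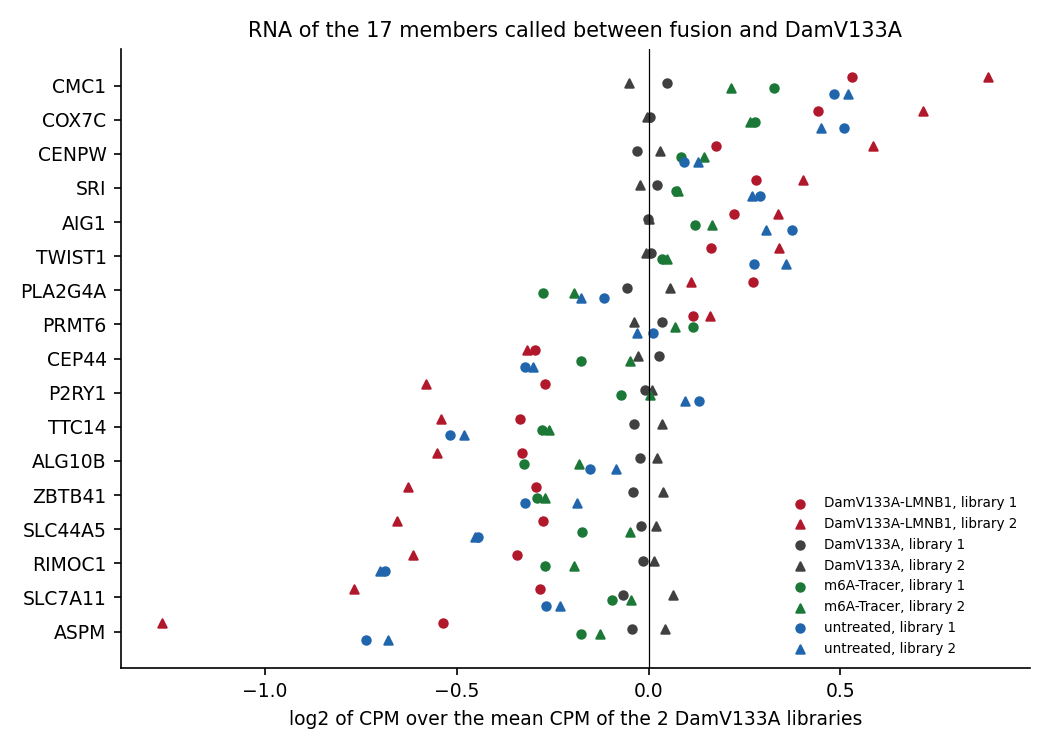
Log2 of the CPM over the mean CPM of the 2 DamV133A libraries (horizontal axis) for the 17 called members (rows) in each of the 8 RNA libraries, coloured by group, with a circle for library 1 and a triangle for library 2. Fusion and DamV133A points do not overlap for any of the 17, which were picked by a test of these same libraries. Untreated points of COX7C, CMC1 and SRI stand near those of the fusion.

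Against m6A-Tracer, a transfection without Dam, no member was called. DamV133A-LMNB1 over m6A-Tracer called 0 members with edgeR, where 0.231% of all genes were called (0.0564% higher, 0.175% lower), with a smallest adjusted p of 0.057 (PLA2G4A). An unadjusted p under 0.05 was found for 35 members and 32.6% of all genes, and DESeq2 called 14 members and 14.4% of all genes. DamV133A over m6A-Tracer called 0, where 0.124% of all genes were called (0.0507% higher, 0.0733% lower), with a smallest adjusted p of 0.41 (GOLT1B). An unadjusted p under 0.05 was found for 17 members and 8.95% of all genes, and DESeq2 called 0 members and 0.321% of all genes. The medians over members were -0.07 and 0.03. Without fusion library 2 the median for the fusion over m6A-Tracer turned to 0.02, with 55 members above 0, and without fusion library 1 it was -0.11. The 3 contrasts share libraries, so their values are not independent of each other.

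Span went with the sign of the change in all genes as in members. Members of 30 kb or less (27 genes) had a median log2 change of 0.07 with the fusion over DamV133A, against 0.11 for all 7118 genes of that length. Members of 30 to 100 kb (28 genes) had -0.20, against -0.07, and members over 100 kb (45 genes) had -0.14, against -0.18. The spans of 13 members overlap that of another protein-coding gene, and whether counting used strand was not given in the sources used here, so reads of such pairs may have been shared.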

How the data were processed

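DamID and RNA were measured in HEK293T cells, and samples were grouped by their labels. The authors deposited a table of 100 kb bins with fragment counts of single cells (unique fragments, unscaled) and coverage counts of bulk libraries, the unit of coverage being not given in the sources used here. A log2 fold change column by the authors and other columns, 0 or 1 marks of control bins, stand in that deposited table and were not used. For the Dam variants the authors deposited counts per DpnI fragment (7180359 fragments). For RNA the authors deposited estimated counts (expected counts) per gene, which were rounded to whole numbers. Tools listed in the submitters' processing notes, with no role, are Salmon, limma, DESeq2, bedtools 2.28, SAMtools 1.9, BWA 0.7.15-r1140 and Trimmomatic 0.39, with hg38 as the build.

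Members and gene lists were chosen with earlier results of these data known. Genes were placed by RefSeq (GRCh38.p14). An RNA row was matched for 18361 of 18991 placed genes (96.7%), by identifier first and otherwise by symbol or synonym. All 100 members matched by identifier. RNA and variant bins were tested with edgeR 4.0.16 (R 4.3.3; TMM, filterByExpr, glmQLFit and glmQLFTest), with p-values Benjamini-Hochberg adjusted over all features and a threshold of 0.05. Variant counts were summed to 100 kb bins, to gene spans with 50 kb flanks (50 counts or more in each) and to windows round start sites (20 counts or more in each), the latter with the library as a block and library totals as sizes. A single-cell bin was scored with 50 or more variant DamV133A counts (26811 bins). DESeq2 1.42.0, other scalings, filters and left-out libraries were the alternatives. The fits were tested on simulated data.

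Members named are the 12 with the highest CPM, the 8 in the strongest bins, up to 8 called per direction and RNA contrast, up to 4 per list, the 6 lowest and the 6 highest of span against flanks, and those next to the limits. CPS1, CENPW, TMX4, CWC22, the bins of low and high contact, the members with few CpG, the longest members and the extremes at start sites were chosen after their values were seen. Other work used matplotlib 3.10.9, SciPy 1.17.1, pandas 2.3.3, NumPy 2.4.6 and Python 3.11.15.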

Additional observations from a re-analysis of the deposited data

Results flagged for a closer look

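At the bin of CENPW the effect of the lamin B1 fusion differed between the Dam enzymes: the V133A effect exceeded the wild-type effect by 1.71 on the log2 scale, a difference that passed its own interaction test (edgeR adjusted p = 0.0449). It was the only one of 98 member bins to pass, where 0.494% of all bins passed and 0.136% passed upward. With a replicate block 0 member bins and 0% of all bins passed. The bin was not called without either DamV133A library, either DamWT library or the first DamWT-LMNB1 library. The density of free DamV133A there was 1.66 and 1.78 times the library mean, against 3.00 and 2.91 times for free DamWT, and the part of that difference in the result was not tested.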

How the results depend on the processing

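The RNA count of 17 members (fusion over DamV133A) became 28 with library totals (13 of the 17 among them, 21.5% of all genes called). It became 39 with no low-count filter (16 among them, 17.9% of all) and 27 with DESeq2 (16 among them, 23.0% of all). At bulk log2 1.0 or more 4 of 32 members were called, and at 50 CPM or more 7 of 35. These counts come from the main fit, which called 20.3% of all genes. Over m6A-Tracer, the fusion called 26 with no filter (13.7% of all genes) and 14 with DESeq2 (14.4%), and DamV133A called 1 with no filter (1.08%). Leaving out 1 library gave 0 to 71, 0 to 69 and 0 to 21 members for the 3 RNA contrasts, and the cause was not tested. Variant bins called with V133A numbered 51 with library totals and 51 to 79 leaving out 1 library, the lowest without DamV133A replicate 1. With wild-type Dam the 5 became 1 with DESeq2 size factors, 0 with library totals, 35 with DESeq2, and 0 to 18 leaving out 1 library. Free V133A over wild type called 1 with DESeq2 (0.616% of all bins). With the replicate block, RNA calls numbered 10, 0 and 0, where 11.7%, 0.0507% and 0.00564% of all genes were called. Variant calls then numbered 77, 1 and 0, where 50.7%, 1.79% and 0% of all bins were called. Same-numbered libraries did not deviate together (r -0.05 to 0.02 for RNA, and at most 0.03 for bins), so the numbers only name samples and no pairing is claimed. Mean contact of member bins in batch 1, batch 2 and Dam-only cells was 20.8%, 17.1% and 5.44% at 2 times the expected count, and 56.8%, 55.7% and 30.3% with expectation from the bulk DamV133A coverage. It was 38.2% and 35.9% in LMNB1 cells after thinning, and 57.5% and 50.4% at bulk log2 1.0 or more. The start-site medians, added after seeing the data, were -0.43 (V133A) and -0.051 (wild type) with covered fragments. Leaving out 1 library gave -0.68 to -0.46 with V133A. With wild-type Dam it gave -0.27 to 0.10, turning to 0.0027 and 0.10 without the first or the second DamWT-LMNB1 library. Span against flanks called 0 members under every alternative run.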
